A study of Mus musculus with 13 samples.

Results

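The SLAM (signalling lymphocytic activation molecule) receptors are immunoglobulin-type proteins on the surface of blood cells, and Sh2d1a encodes SAP, the small adaptor through which many of them signal. The set described here is Slamf1, Slamf6, Slamf7, Cd84, Ly9 and Cd48, which lie in 1 cluster on mouse chromosome 1, and Sh2d1a, which lies on the X chromosome. These 7 genes were chosen by name from the 17849 genes of the RNA table, and each matched 1 Ensembl identifier. The rule uses symbols and no measured value, though the set was put together with earlier results of these data known. RNA came from CD4+CD8+ double-positive thymocytes, the stage at which developing T cells carry both coreceptors. Of the 4 libraries, 2 were labelled wild type and 2 Rad21 KO. Rad21 is a subunit of cohesin, the ring complex that holds DNA loops and sister chromatids together. The labels of the RNA samples give the genotype and the cell type and no allele, deleting enzyme, age, sex or strain, and they do not say whether replicates are separate animals. P-values therefore measure the spread between these libraries, which may be technical.

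Most SLAM receptors bind the same receptor on a neighbouring cell, while CD48 is the ligand of CD244 and, in the mouse, of CD2. SAP docks on the tails of the receptors with an SH2 domain and brings in the kinase Fyn. In the thymus this matters for invariant natural killer T (NKT) cells, which are selected when one double-positive thymocyte presents lipid on CD1d to another and the 2 cells also touch through SLAM receptors. SLAMF1 and SLAMF6 are the receptors best known for this contact. Loss of SAP leaves mice and people with almost no invariant NKT cells.

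The libraries held 6500819 to 9384505 counts. Lars2 and Gm15564 together took 34.5% and 12.6% of the counts of Rad21 KO replicates 1 and 2 and 5.84% and 7.47% of the wild type libraries, so results are also given with these genes left out. Rad21 itself stood at 67.9 and 65.7 CPM (counts scaled to library size with TMM factors) in the knockout and 271 and 233 in wild type, a log2 fold change of -1.91 (SE 0.12). All 11 genes of a set list of markers for double-positive thymocytes, Cd4, Cd8a and Rag1 among them, were present in every library. Of 12003 genes tested with edgeR's quasi-likelihood test, 12.8% passed an adjusted p of 0.05 in either direction and 5.17% passed as lower in the knockout. The 1533 calls were 912 higher and 621 lower, and with libraries scaled by total counts alone they were 343 higher and 851 lower, since that scaling moved the median log2 fold change of all genes to -0.29.

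Slamf6, Cd84 and Sh2d1a fell in the Rad21 KO libraries, each to about 48% to 54% of the wild type level. Slamf1, Ly9 and Cd48 did not pass the threshold, and Slamf7 had too few counts to test. In all, 3 of the 6 tested genes were lower and 0 were higher, beside 5.17% of all tested genes called lower. For higher calls the count was also 0 at an unadjusted p under 0.05, in DESeq2 and in limma-voom. The median log2 fold change of the 6 genes was -0.65, against -0.01 over all tested genes. In each of the 6 genes both knockout libraries lay below both wild type libraries, an order that 29.2% of all tested genes also showed. In bulk RNA, fewer cells that express a gene and less RNA per cell cannot be told apart.

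**Figure D1:**
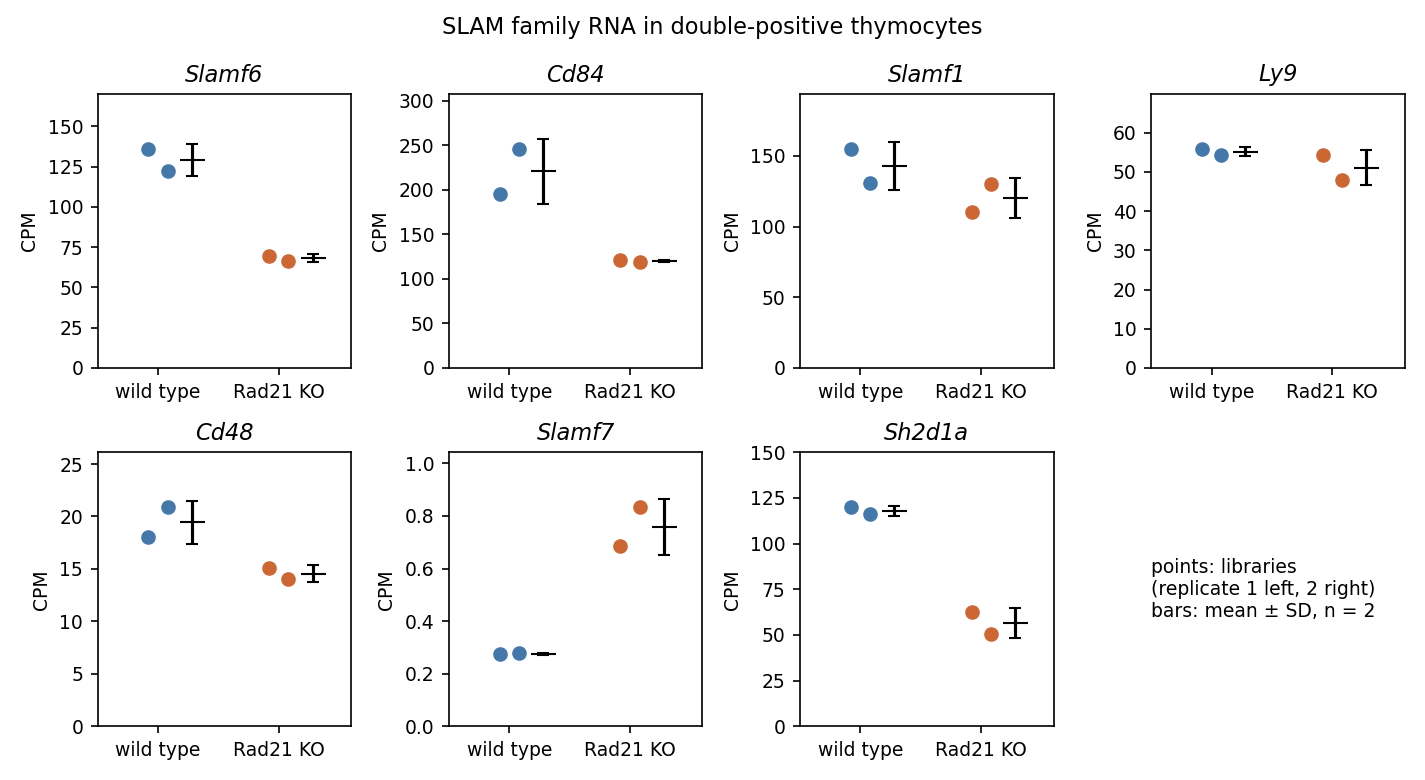
RNA level in CPM (vertical axes, each from 0) of the 7 SLAM genes in 2 wild type (blue) and 2 Rad21 KO (orange) libraries, with black bars for mean ± SD. Slamf6, Cd84 and Sh2d1a show a wide gap between the genotypes, while for Slamf1 and Ly9 the nearest libraries of the genotypes almost touch, and Slamf7 is close to 0 throughout.

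Sh2d1a, the adaptor gene, had the largest fall. In the knockout it measured 62.4 CPM (replicate 1) and 50.5 CPM (replicate 2), while wild type gave 120 and 116 CPM. The knockout libraries were both far below the wild type libraries, and the gap was several times the spread within either pair. The log2 fold change was -1.06 (SE 0.14, 95% interval -1.38 to -0.74, edgeR adjusted p = 0.00494, quasi-likelihood test), which leaves 47.8% of the wild type level.

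Slamf6 encodes Ly108, the receptor that pairs with itself between thymocytes. It stood at 69.7 and 66.2 CPM in the knockout and at 136 and 122 CPM in wild type. Again no knockout library came near a wild type one. The log2 fold change was -0.93 (SE 0.12, 95% interval -1.20 to -0.66, edgeR adjusted p = 0.00451), or 52.6% of wild type.

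Cd84, which encodes another self-binding receptor that recruits SAP, had 121 and 119 CPM in the knockout and 195 and 246 CPM in wild type. Here the wild type libraries were the less even pair, and both were above the knockout. The log2 fold change was -0.88 (SE 0.13, 95% interval -1.19 to -0.57, edgeR adjusted p = 0.00784), or 54.3% of wild type. Its call was lost when no filter on low counts was used (adjusted p = 0.051, where its 11 alternatives ranged from 1.69e-06 to 0.051).

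Slamf1, the founding member of the family and also known as CD150, lies next to Cd84. The knockout libraries held 110 and 130 CPM and the wild type libraries 155 and 131 CPM, so the higher knockout library almost touched the lower wild type one. The log2 fold change was -0.26 (SE 0.13, 95% interval -0.57 to 0.06, edgeR adjusted p = 0.253). That interval includes 0 and ends short of the estimates for Cd84 and Slamf6, though the difference between these genes was not tested.

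Ly9 encodes CD229, a large SLAM receptor for itself, and varied least. It had 54.2 and 47.9 CPM in the knockout and 55.9 and 54.3 CPM in wild type. Knockout replicate 1 and wild type replicate 2 were practically level. The log2 fold change was -0.11 (SE 0.13, 95% interval -0.41 to 0.19, edgeR adjusted p = 0.619).

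Cd48 encodes a lipid-anchored ligand without a signalling tail. It was measured from 101 to 151 counts per library, which gives the widest interval of the 6 tested genes. The levels were 15.1 and 14.0 CPM in the knockout and 18.0 and 20.9 CPM in wild type, lower in both knockout libraries by a modest margin. The log2 fold change was -0.42 (SE 0.18, 95% interval -0.84 to 0.00, edgeR adjusted p = 0.173), and that interval ends short of the estimate for Slamf6. The difference between these genes was not tested.

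Slamf7, a receptor known from natural killer cells, plasma cells and activated myeloid cells, was close to the floor of 3 counts. It had 5 and 6 counts in the knockout and 2 and 2 in wild type. The pooled ratio was 2.76 with an exact 95% counting interval of 0.817 to 11.9, which includes 1, so no difference was detectable at this depth.

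The position of the genes on chromosome 1 was set beside their fold changes. In chromosome order the receptors run Ly9, Slamf7, Cd48, Slamf1, Cd84 and Slamf6, so Cd84 and Slamf6, which fell, are adjacent at one end of the cluster. Beyond Ly9 lies Cd244a, and beyond Slamf6 lies Vangl2, a planar polarity gene whose log2 fold change of 0.03 (SE 0.26) turned negative with total-count scaling (-0.31), in limma-voom (-0.01), with the replicate block and on removal of knockout replicate 1 (-0.40) or of wild type replicate 1 (-0.11). Among the other protein-coding genes of the interval and the 10 on each side, 21 in all, 11 were abundant enough to test and 0 passed the threshold by edgeR, by DESeq2 or by limma-voom. With 12.8% of all tested genes called, so short a list says little either way. At an unadjusted p under 0.05 there was 1, Dcaf8, a substrate receptor of a ubiquitin ligase, with a log2 fold change of -0.32 (edgeR adjusted p = 0.0769), named for that p after the values were seen. The 11 neighbours ranged from -0.64 to 0.47. Whether the cluster differs from its surroundings was not tested.

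**Figure D2:**
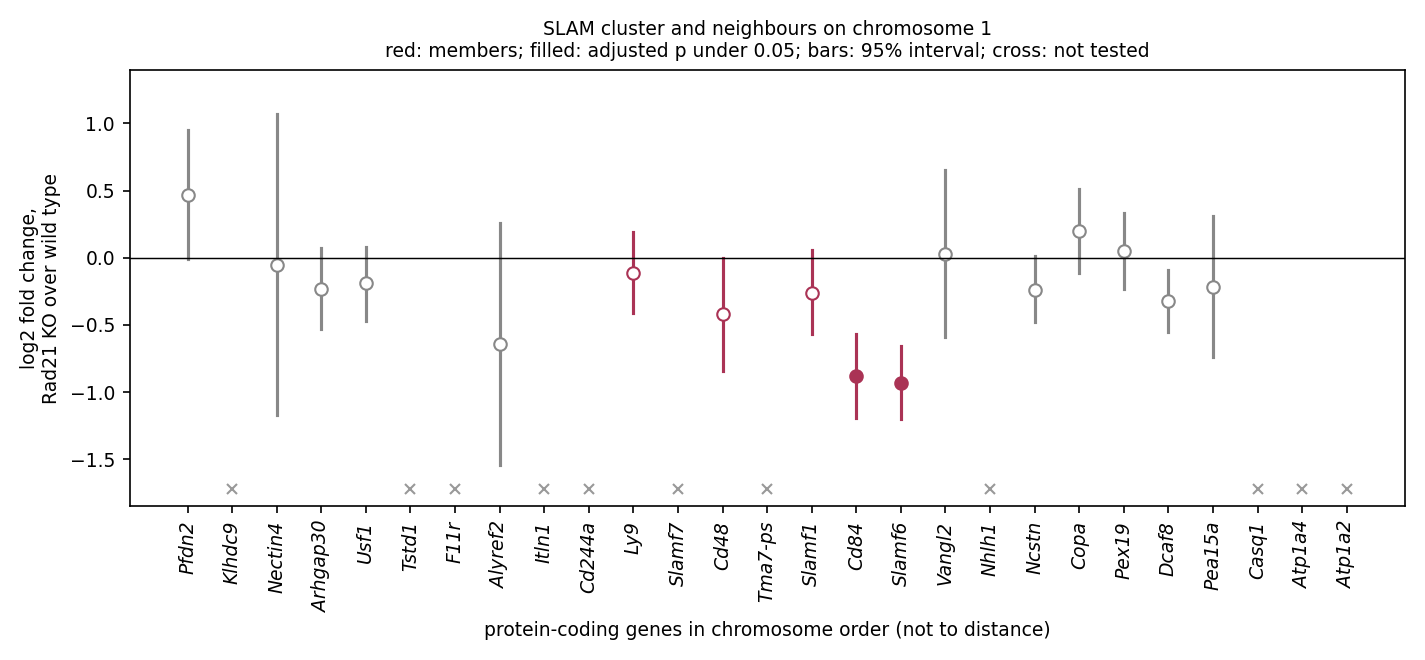
Log2 fold change of Rad21 KO over wild type (vertical axis) for protein-coding genes in chromosome order (horizontal axis, spacing not to distance), with 95% intervals. Members are red, filled points passed an adjusted p of 0.05, and crosses mark genes not tested; Cd84 (-0.88) and Slamf6 (-0.93) are the filled points.

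The 250 bases upstream of the start site were available from RefSeq (GRCm38.p6) for 5 of the 7 genes and are shown for the adjacent genes Slamf6, Cd84 and Slamf1, of which the first and second fell and the third did not pass the threshold. Capitals mark matches on either strand to 4 short motifs of factors at work in these cells. They are the E box CANNTG of E proteins, the MYB core AACNG, the TCF/LEF core CTTTG and the RUNX core TGTGGT.
Slamf6 (chr1:171917212-171917461, + strand): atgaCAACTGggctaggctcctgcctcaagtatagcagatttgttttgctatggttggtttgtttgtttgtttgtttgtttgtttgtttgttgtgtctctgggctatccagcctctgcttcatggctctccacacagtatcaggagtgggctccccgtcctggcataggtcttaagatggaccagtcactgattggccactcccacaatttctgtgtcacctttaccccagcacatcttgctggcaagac
Cd84 (chr1:171839447-171839696, + strand): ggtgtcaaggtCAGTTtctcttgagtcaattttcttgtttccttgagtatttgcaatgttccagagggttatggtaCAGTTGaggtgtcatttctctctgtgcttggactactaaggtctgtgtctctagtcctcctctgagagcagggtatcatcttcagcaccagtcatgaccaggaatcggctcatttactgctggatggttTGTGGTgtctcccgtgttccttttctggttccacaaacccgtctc
Slamf1 (chr1:171766882-171767131, + strand): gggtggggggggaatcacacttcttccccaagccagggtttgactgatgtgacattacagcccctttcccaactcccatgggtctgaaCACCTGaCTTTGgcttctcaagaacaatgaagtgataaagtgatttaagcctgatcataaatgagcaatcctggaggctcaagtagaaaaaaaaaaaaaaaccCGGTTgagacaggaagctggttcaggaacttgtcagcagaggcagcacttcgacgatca

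Each of the 5 upstream windows holds 1 E box, where 66.2% of 32851 RefSeq windows of the same length hold at least 1. All 5 also hold the MYB core, against 74.2% of all windows, so neither motif sets these genes apart. In Slamf6 and Cd84 the E box and the MYB core overlap in the same 6 letters, CAACTG, at positions -246 and -174 (counted back from the start site, with Cd84 on the reverse strand). This combined motif was picked after the windows had been seen, and 11.1% of all windows hold it. The windows of Slamf1, Slamf7 and Cd48 do not. Cd84 further holds 1 RUNX core, as does Cd48 (14.0% of all windows), and the TCF/LEF core is present for Slamf1, Slamf7 and Cd48 and not for Slamf6 or Cd84 (48.6% of all windows). A match is a run of letters and not a measured binding site.

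Counts of each gene were next divided by the Ly9 counts of the same library (Ly9, which varied least, was picked as the divisor after its values were seen), a measure that no scaling of libraries can move. With a divisor picked that way, the ratios restate the counts above on another scale and are given as a description. Slamf6 gave 1.29 and 1.38 counts per Ly9 count in the knockout and 2.44 and 2.25 in wild type. Sh2d1a gave 1.15 and 1.05 against 2.14 and 2.14, and Cd84 2.23 and 2.48 against 3.49 and 4.53. All 3 of these ratios were lower in both knockout libraries. The ratio of Slamf1 did not separate the genotypes, at 2.02 and 2.71 against 2.78 and 2.41. Cd48 gave 0.278 and 0.293 against 0.323 and 0.385, again lower in both knockout libraries. With 2 libraries per genotype an exact two-sided permutation test of such a ratio cannot go below p = 0.333, so none is given.

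**Figure D3:**
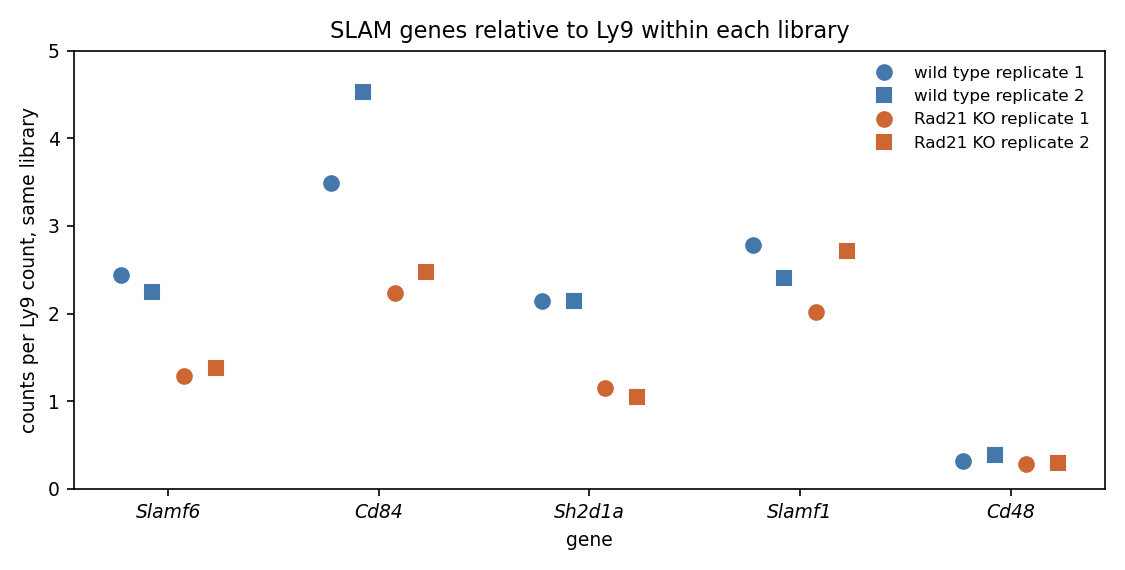
Counts per Ly9 count of the same library (vertical axis from 0) for 5 SLAM genes, with wild type in blue and Rad21 KO in orange. Slamf6, Cd84, Sh2d1a and, by a smaller margin, Cd48 are lower in both knockout libraries, while the Slamf1 points of the genotypes interleave (2.02 and 2.71 against 2.78 and 2.41).

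Of the remaining receptors and adaptors of the family, those measured had few counts. Cd244a, Slamf9 and the adaptor gene Sh2d1b2 had at most 2 counts in any library. Sh2d1b1 was not analysed here, while Slamf8 stood between 0.273 and 1.64 CPM with overlapping groups. CD2, a related adhesion receptor that binds CD48, was expressed and fell from 83.3 ± 3.81 to 60.1 ± 0.328 CPM (mean ± SD, n = 2), a log2 fold change of -0.47 (SE 0.11, edgeR adjusted p = 0.0396). That call did not survive the loss of any 1 of the 4 libraries (-0.43 to -0.52), nor DESeq2 (-0.47), total-count scaling (-0.76) or the replicate block (-0.47).

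Most genes that act below the receptors did not pass the threshold. Of 13 tested, 1 rose, 2 fell and 10 did not pass, with a median log2 fold change of 0.01. Over all 12003 tested genes, 912 were called higher and 5.17% were called lower, or 12.8% in either direction. Fyn, the kinase that SAP recruits, was level across the libraries, with 93.8 and 87.1 CPM in the knockout and 97.4 and 93.6 in wild type (log2 fold change -0.08, 95% interval -0.34 to 0.18). Bcl10, an adaptor on the way from protein kinase C-theta to NF-κB, rose from 38.9 and 32.4 CPM in wild type to 65.2 and 84.9 in the knockout, a log2 fold change of 1.07 (SE 0.17, edgeR adjusted p = 0.0107). That kinase's own gene, Prkcq, stood at -0.16 (SE 0.09).

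The genes of this group that fell were Lck, the kinase bound to the CD4 and CD8 tails, and Rasa1, a brake on Ras that SLAM receptors can recruit. Their log2 fold changes were -0.48 (SE 0.12, edgeR adjusted p = 0.0389) and -0.46 (SE 0.12, edgeR adjusted p = 0.0458). The call of Lck was lost with any 1 library removed (-0.41 to -0.55), and that of Rasa1 with knockout replicate 2 (-0.34), wild type replicate 1 (-0.46) or wild type replicate 2 (-0.46) removed. Both were also lost with the replicate block (-0.48 and -0.46) and with total-count scaling (-0.77 and -0.76). Vav1, an exchange factor downstream of Fyn, had -0.41 (SE 0.11, edgeR adjusted p = 0.0577), with passing values in DESeq2 (-0.41) and without Rad21 KO replicate 1 (-0.51).

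The last list joined transcription factors of double-positive thymocytes with genes of invariant NKT selection. Of 14 tested, 1 rose, 4 fell and 9 did not pass (12.8% of all tested genes were called and 5.17% called lower), with a median log2 fold change of -0.32. Cd1d1, which encodes the lipid-presenting molecule CD1d, had 69.8 and 69.6 CPM in the knockout and 103 and 96.4 CPM in wild type, a log2 fold change of -0.52 (SE 0.11, edgeR adjusted p = 0.0282). Its close copy Cd1d2 was low and uneven in wild type (17.2 and 50.0 CPM) and lower in the knockout (6.02 and 8.48 CPM), with log2 fold change -2.21 (SE 0.49, edgeR adjusted p = 0.0315). These genes are near-identical and may share reads, so their separate counts are uncertain. Cd1d1 also dropped below the threshold with any 1 library removed (-0.47 to -0.57) and under the replicate block (-0.52). The call of Cd1d2 ended without Rad21 KO replicate 1 (-1.98) and in limma-voom (-2.03), and its size rested on wild type replicate 2, without which it was -1.25, against -2.79 without wild type replicate 1.

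Among the factors, Myb, which is known to act on Slamf1, Slamf6 and Cd1d1 in double-positive cells, stood at 750 and 843 CPM in the knockout and 1150 and 1170 in wild type. Its log2 fold change was -0.54 (SE 0.11, edgeR adjusted p = 0.0265), and the call ended without Rad21 KO replicate 1 (-0.45), without either wild type replicate (-0.55 and -0.54), with the replicate block (-0.55) and with total-count scaling (-0.81). Lef1, of the same TCF/LEF family as Tcf7, fell by 0.62 on the log2 scale (SE 0.12, edgeR adjusted p = 0.0188), a call lost without wild type replicate 2 (-0.50). Tcf7 (-0.28, SE 0.14) and Tcf12, which encodes the E protein HEB (-0.04, SE 0.11), did not pass. Egr1, an immediate early factor, was the gene that rose (log2 fold change 0.74, SE 0.14, edgeR adjusted p = 0.0192), lost without wild type replicate 1 (0.64) and with total-count scaling (0.47). The NKT factor gene Zbtb16 had 0 counts in all 4 libraries, and Bcl2l1, which keeps double-positive cells alive, had -0.54 (SE 0.14, edgeR adjusted p = 0.0519), passing in 7 of 11 alternatives. With no filter on low counts, none of the genes called in the signalling and regulator lists, nor Cd2, passed (edgeR adjusted p from 0.0684 for Bcl10 and Myb to 0.129 for Cd1d2).

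**Figure D4:**
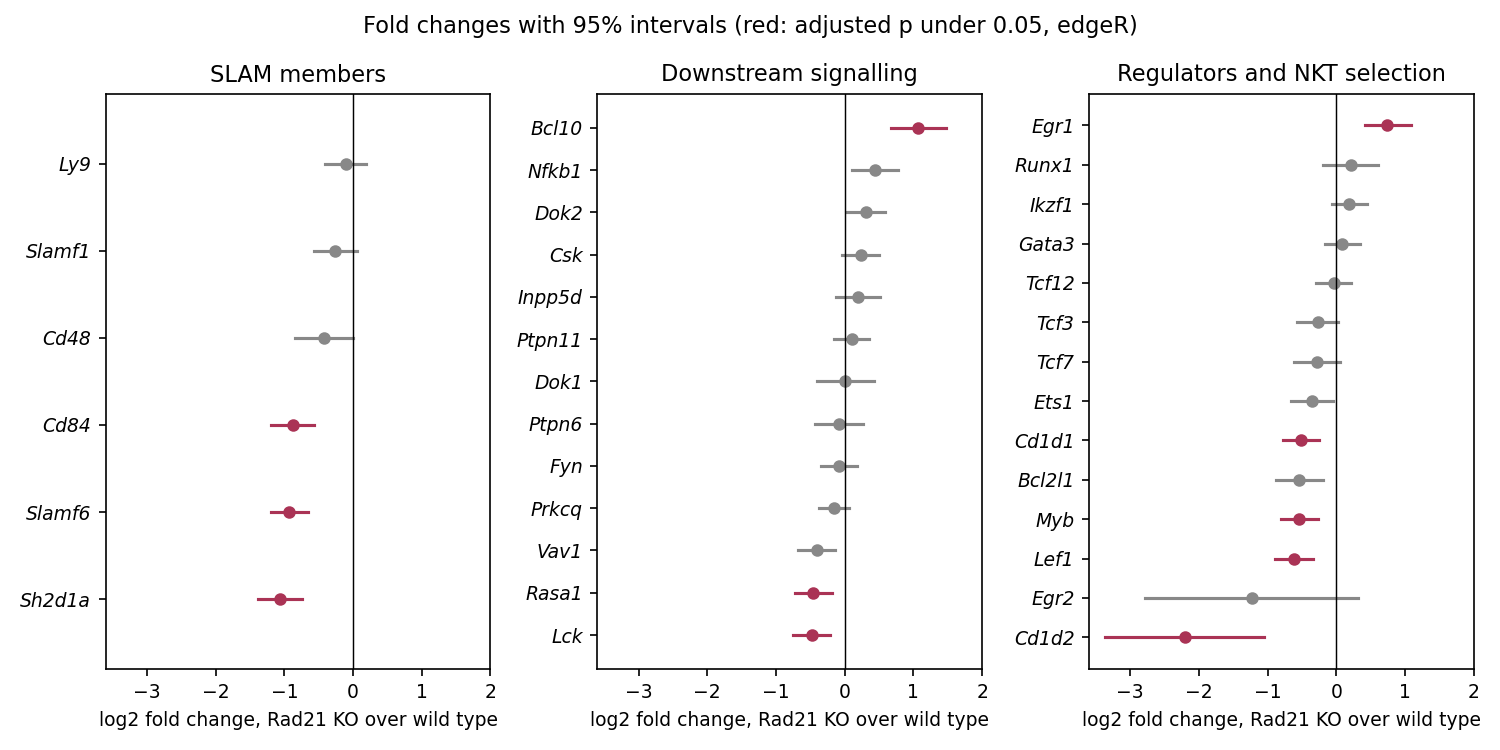
Log2 fold change of Rad21 KO over wild type (horizontal axis) with 95% intervals for tested SLAM members, downstream signalling genes and regulators, 1 row per gene. Red marks an adjusted p under 0.05 by edgeR: 3 of 6, 3 of 13 and 5 of 14 genes.

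Other genes of the double-positive stage fell alongside the SLAM genes. Of the 11 genes in the set list of markers, 4 were lower and 1 higher. Of all tested genes, 5.17% were called lower and 12.8% in either direction. Themis, a regulator of positive selection, had a log2 fold change of -0.96 (SE 0.11), Rag2 -0.79 (SE 0.14), Rag1 -0.73 (SE 0.16) and Dntt -0.63 (SE 0.13). Ptcra, which was low in wild type at 8.47 and 7.62 CPM, had 1.07 (SE 0.23). The calls of Rag1 and Dntt were lost with knockout replicate 2 removed (-0.61 and -0.51) and with wild type replicate 1 removed (-0.66 and -0.54), that of Rag1 also with the replicate block (-0.73), and that of Ptcra with knockout replicate 1 removed (0.84), with wild type replicate 2 removed (0.99) and with total-count scaling (0.75). With no filter on low counts, Rag1, Rag2, Dntt and Ptcra all lost their calls (edgeR adjusted p from 0.0623 to 0.0898). The coreceptor gene Cd4 had -0.48 (SE 0.15, edgeR adjusted p = 0.0838), lower in both knockout libraries, and passed in DESeq2 (-0.48) and without wild type replicate 2 (-0.65). Cd8a (-0.34), Cd8b1 (-0.09, or 0.06 without knockout replicate 2) and the T cell receptor complex gene Cd3e (0.18, or -0.11 with total-count scaling) did not pass. Cd3d (-0.06) and Cd24a (0.07) did not pass either. The summed level of the 11 markers was 10700 and 9420 CPM in the knockout and 15300 and 13800 in wild type. Rag1 was the largest part of that sum, with 3830 and 3320 CPM in the knockout and 6200 and 5640 in wild type. The part of the summed level in the fall of Slamf6, Cd84 and Sh2d1a was not tested.

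SLAM receptors are also found on B cells, myeloid cells and natural killer cells. Markers of these cells were at low levels, some at the floor and some above it. The B cell list summed to 27.0 and 29.3 CPM in the knockout and 34.8 and 33.1 in wild type. Cd79b was the largest part of that sum, at 13.0 and 12.6 CPM in the knockout and 17.2 and 13.3 in wild type. Ms4a1 and Pax5 had 3 counts or fewer in every library. The myeloid and dendritic list summed to 28.2 and 48.4 CPM against 50.1 and 52.1, with Itgax and Fcer1g at that floor and Itgam lower (log2 fold change -1.29, SE 0.22), a call lost without wild type replicate 2 (-1.05) and with no filter on low counts (-1.29). Natural killer markers summed to 16.0 and 22.2 CPM against 15.2 and 13.3, with Klrd1, Klrk1, Nkg7 and Eomes at the floor. Prf1, above the floor, had 5.75 and 5.28 CPM in the knockout and 5.88 and 4.85 in wild type. Mature NKT markers summed to 12.3 and 19.2 CPM against 8.88 and 8.86, with Tbx21, Ifng and Zbtb16 at the floor. Gzma and Klrb1c are in both of these lists. Gzma alone made up most of the knockout sums of both, at 9.86 and 15.8 CPM against 6.29 and 7.62 in wild type. The tested genes of the NKT list, Gzma (log2 fold change 0.88, edgeR adjusted p = 0.0982) and Il2rb (1.66, edgeR adjusted p = 0.0714), did not pass. Thymic epithelial markers summed to 27.1 and 30.3 CPM against 19.3 and 19.4, with Epcam alone called (log2 fold change 3.08, SE 0.36) and Foxn1 and Prss16 at the floor, and erythroid markers to at most 10.3 CPM. The part of these cells in the results for the SLAM genes was not tested.

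The genes with the most similar pattern over the 4 libraries were found by the root mean square distance of log2 CPM centred on each gene's mean, among 9822 genes of at least 5 CPM. Nearest to Sh2d1a were Aldh1l1 (distance 0.013) and Dmac1 (0.027). Nearest to Slamf6 were Mmp24 (0.018) and Agfg2 (0.026), and nearest to Cd84 were Tctn1 (0.032) and Rnf214 (0.056). No SLAM gene was among these nearest genes, but only 2 of the 9822 were kept for each member. Their absence therefore says little about whether the SLAM genes share a pattern. With only 4 libraries such a match describes a profile of 4 values.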

How the data were processed

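RNA was depleted of ribosomal RNA and made into Illumina libraries, per the labels' protocols. The authors deposited count equivalents for each Ensembl gene, here taken to be estimated counts and rounded. Per the submitters' processing notes, mm9 was the build. Which aligner and counter were used, and whether strand was read, is not given in the sources used here. Reads of overlapping antisense genes may therefore be mixed. Symbols were found for 17342 of 17849 identifiers. Knockout columns spell the gene with a digit missing and were matched by the rest of the name.

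Rad21 KO and wild type libraries were compared by the quasi-likelihood test of edgeR 4.0.16, run in R 4.3.3 (TMM, low counts removed with filterByExpr, no block, Benjamini-Hochberg over 12003 genes, threshold 0.05). SE is the log2 fold change divided by the square root of F. DESeq2 1.42.0 and limma-voom (limma 3.58.1) were alternatives. The fit was tested on simulated data. Levels were not compared between genes, since no transcript lengths were used. A count of 3, the floor, was 0.41 to 0.417 CPM. Replicates differed by more than sampling noise (chi-square per degree of freedom 69 for the knockout, 6.17 for wild type). These 2 values used raw counts scaled by library totals, without TMM factors and with Lars2 and Gm15564 kept in. They therefore include the unequal shares of those genes (34.5% and 12.6% in the knockout libraries) and do not measure the spread after TMM scaling. Intervals on counts cover counting error only.

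The members, lists and rules for naming genes were chosen with earlier results of these data known. Named were all members, every called gene of each list, and the 2 nearest in pattern to each called member; Fyn, Prkcq, Vav1, Tcf7, Tcf12, Bcl2l1 and genes near Sh2d1a were picked after their values were seen, as were the motifs, neighbours and uncalled markers. RefSeq (GRCm38.p6) gave gene order and upstream bases. Peak lists are on mm9, for which no annotation was used here, and were not analysed. Some genes of the lists are not reported here and enter no count, sum or median of a list.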

Additional observations from a re-analysis of the deposited data

How the results depend on the processing

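Slamf6 and Sh2d1a kept their direction and their call in all 11 alternatives, with log2 fold changes from -1.22 to -0.85 and from -1.37 to -0.90. Cd84 ranged from -1.17 to -0.71 and lost its call in 1 of 11, with no filter on low counts. Slamf1 (-0.52 to -0.13), Ly9 (-0.41 to -0.01) and Cd48 (-0.72 to -0.31) were below 0 and not called in any of the 11. Total-count scaling gave the lowest value of each of the 6 genes and shifted the median of all genes to -0.29. Without Lars2 and Gm15564, 3 of the 6 were again called.

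Over all genes the calls dropped from 1533 to 433 (285 higher, 148 lower) with no filter on low counts, where 17003 genes were tested, and leaving out 1 library gave 947 to 1438 calls, the fewest without wild type replicate 2; the cause was not tested. With the replicate block the calls were 1025 and the same number of SLAM genes, 3, passed. The labels do not say that replicate numbers pair the libraries, and deviations of same-numbered libraries correlated at 0.034 across genes. Of 41 genes followed through the alternatives (the members, the genes called in a list and others picked after their values were seen), 4 changed sign, none of them called: Cd8b1 (0.06 without Rad21 KO replicate 2, -0.22 without Rad21 KO replicate 1), Cd3e (-0.11 with total-count scaling), Tcf12 (0.03 without wild type replicate 1, -0.12 without wild type replicate 2) and Vangl2 (-0.31 with total-count scaling, -0.01 in limma-voom, -0.00 with the replicate block, -0.40 without Rad21 KO replicate 1 and -0.11 without wild type replicate 1, where the highest value was 0.38 without Rad21 KO replicate 2). The planned comparison of peaks at start sites was not run, since no annotation of the peaks' build was used here.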

Other observations

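Sh2d1a lies apart from the receptor cluster, and the genes around it on the X chromosome were looked at after their values were seen. Stag2, which encodes a cohesin subunit, and Xiap, an inhibitor of cell death, precede it, and neither passed the threshold (log2 fold changes -0.07, SE 0.10, and -0.17, SE 0.10). Tenm1, a teneurin known from the nervous system and the next gene after Sh2d1a, gave 10 and 18 counts in knockout cells against 61 and 31 in wild type cells. Its log2 fold change was -1.70 (SE 0.48, edgeR adjusted p = 0.0612), and it moved with single libraries, passing with knockout replicate 2 removed (-2.18) or with wild type replicate 2 removed (-2.10) and not passing, at a smaller size, with knockout replicate 1 removed (-1.32) or with wild type replicate 1 removed (-1.15). It also passed with total-count scaling (-1.96). Among genes followed further out, on a side not given here, Thoc2, which encodes an mRNA export subunit, passed (-0.39, edgeR adjusted p = 0.0392). That call was lost on removal of any 1 library (-0.36 to -0.42), with the replicate block (-0.39), with total-count scaling (-0.67) and with no filter on low counts (-0.39). Gria3, also followed, did not pass (-0.52, edgeR adjusted p = 0.331).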
